A study of Rattus norvegicus with 10 samples.

Results

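The 10 genes of antioxidant defence and iron handling followed here were measured in the supraoptic nucleus of rats in which the opsin Opn3 had been knocked down on one side. They were Hmox1, Nqo1, Gclc, Gclm, Srxn1, Txnrd1, Slc7a11, Fth1, Ftl1 and Cp. The genes were taken by name as rows of a deposited table of 32623 genes. The rule used no measured values, but the list was chosen with earlier results of these data known. By that rule 9 of the 10 were found, and 8 of the 9 had enough reads to be tested. Ftl1 did not, and no row of the table carried the name Srxn1. The row described as sulfiredoxin 1, whose gene ID is that of Srxn1 in the RefSeq table, is given for completeness and is not counted among the 9.

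RNA had been sequenced from 10 punches of the supraoptic nucleus, the paired hypothalamic nucleus that holds the vasopressin and oxytocin neurons, of male Sprague-Dawley rats of 250 to 300 g. Every rat had been injected with adeno-associated virus in both nuclei, with a hairpin against Opn3 on one side (shOpn3, 5 samples) and a non-targeting hairpin on the other (shControl, 5 samples), and tissue was taken 2 weeks later. Both groups thus received a virus, and no uninjected group was analysed here. A punch of 1 mm holds glia, vessels and other neurons beside the magnocellular ones, and the labels name no promoter or cell type for the hairpins.

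In cells under oxidative stress the transcription factor NRF2 (Nfe2l2) escapes its inhibitor KEAP1 and switches on a shared set of genes through the antioxidant response element, a short DNA motif. These genes supply cystine and glutathione (Slc7a11, Gclc, Gclm), keep thiols and quinones reduced (Txnrd1, Srxn1, Nqo1), and break down heme (Hmox1). Iron set free from heme is stored in ferritin, a shell of heavy (Fth1) and light (Ftl1) chains, and ceruloplasmin (Cp), a copper enzyme made by astrocytes, oxidizes iron as it leaves a cell. In brain tissue, microglia and macrophages hold much of the inducible heme oxygenase, and oligodendrocytes are rich in iron and in transferrin.

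The libraries held 33158341 to 39958578 reads. Opn3 had 261 to 1007 normalized counts in shControl and 145 to 290 in shOpn3, so that the groups overlapped by shControl replicate 5. Its log2 fold change was -1.82 (standard error 0.320; adjusted p = 0.00226 by limma), and it was lower in 5 of 5 pairs. Avp and Oxt, which encode vasopressin and oxytocin and mark the magnocellular neurons, were present in all 10 samples. Their summed counts were 52511 to 158977 in shControl and 8429 to 30626 in shOpn3, and both fell (log2 fold changes -2.35 and -2.21). Markers of other cells moved with the groups too. The summed counts of 8 microglial markers were 14074 to 16418 in shControl and 21933 to 40401 in shOpn3, those of 7 astrocyte markers 222784 to 287239 and 275811 to 402347, and those of 8 oligodendrocyte markers 731561 to 1244840 and 248955 to 470326. Of these markers 7 of 8, 3 of 7 and 0 of 8 rose, and 0, 0 and 8 fell. No marker of these 3 lists was at 0 in every sample. More cells of a type and more RNA per cell cannot be told apart in such samples, and the part of these shifts in the results below was not tested.

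Hmox1, Cp and Slc7a11 rose with the knock-down, while Gclc, Gclm, Txnrd1, Nqo1 and Fth1 were not called by limma in the comparison of the groups without a block. Thus 3 of the 8 tested genes were called at an adjusted p under 0.05 (limma, Benjamini-Hochberg over 15597 genes), all 3 higher, against 18.8% of all genes tested (10.4% higher and 8.48% lower). Without shControl replicate 5 the count was 4, with Txnrd1 as the added gene, where 10.1% of all genes were called higher and 8.49% lower. With the replicate number as a block, which removes what same-numbered samples share, 5 of 8 were called, 3 higher and 2 lower, against 30.3% of all genes (15.1% higher and 15.2% lower). The median log2 fold change of the 8 was 0.05, and that of all genes tested was -0.02. All 5 pairs differed in one direction for 6 of the 8, 4 higher and 2 lower, against 39.4% of all genes (18.7% higher and 20.7% lower). Every shOpn3 sample lay above every control for 2 of the 8, where the groups lay apart for 15.3% of all genes (8.03% higher and 7.23% lower).

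**Figure D1:**
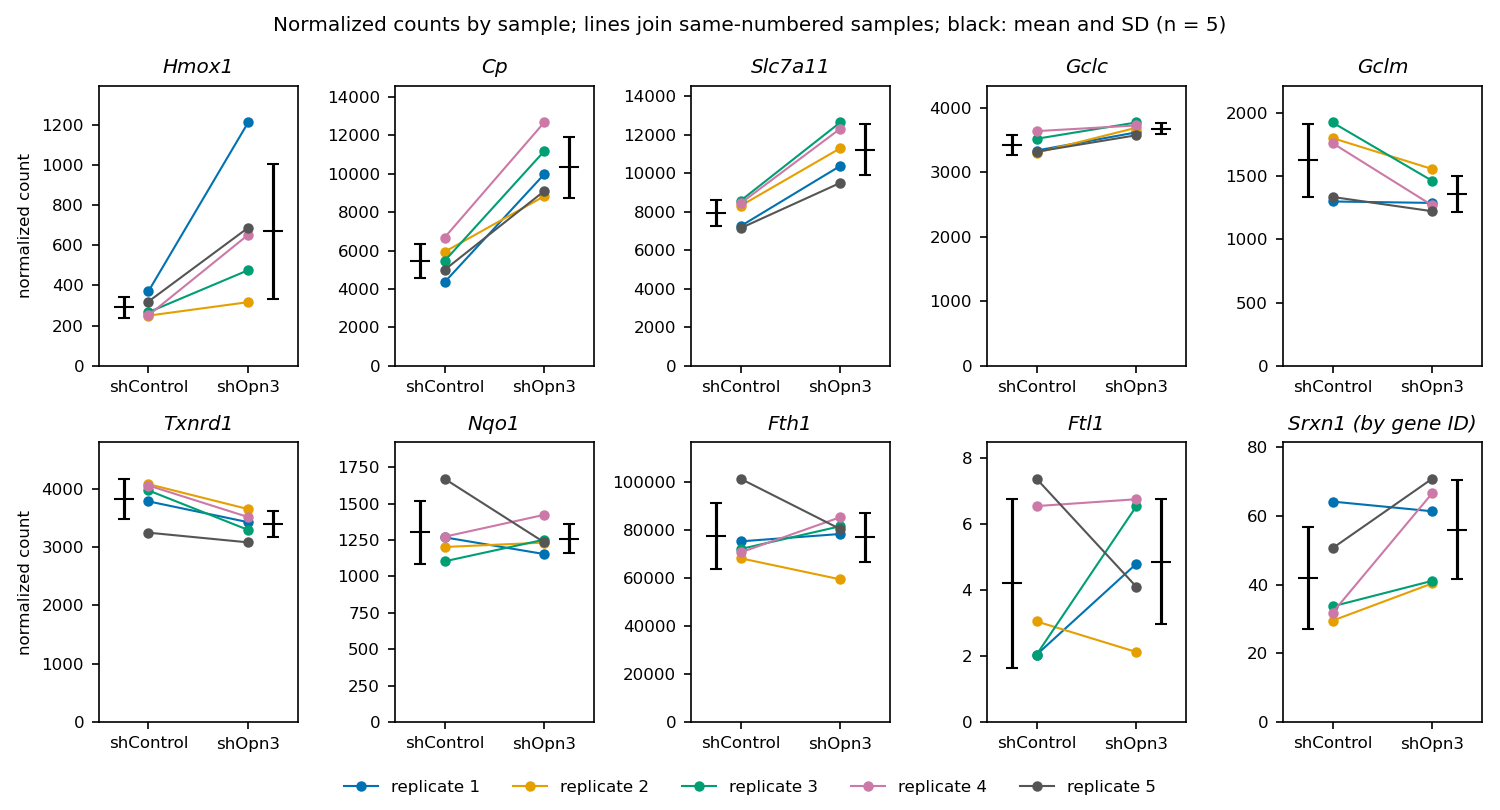
Normalized counts (vertical axes, each starting at 0) of the 9 genes found by name and of the row with the gene ID of Srxn1, in shControl and shOpn3. Coloured points are samples, lines join samples with the same replicate number, and black bars are means with SD (n = 5). All lines rise for Hmox1, Cp, Slc7a11 and Gclc and all fall for Gclm and Txnrd1, by amounts that range from small to more than 3-fold in 1 pair of Hmox1.

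Hmox1 (ENSRNOG00000014117), the inducible enzyme that opens heme into biliverdin, iron and carbon monoxide, had 371, 249, 266, 251 and 320 normalized counts in shControl replicates 1 to 5. In shOpn3 replicates 1 to 5 it had 1212, 316, 476, 652 and 687. Replicate 1 of shOpn3 stood highest, and replicate 2 of shOpn3 lay inside the range of the controls, while the other shOpn3 samples lay above every control. The means were 291 ± 52.9 and 669 ± 338 (SD, n = 5 each), a 2.29-fold difference of means, and the log2 fold change was 1.07 (standard error 0.283; adjusted p = 0.0198 by limma, with the replicate block 0.00327; exact permutation test, two-sided, p = 0.0238). Within pairs Hmox1 stood at 327%, 127%, 179%, 260% and 215% of the same-numbered control. Without shOpn3 replicate 1 its log2 fold change was 0.82 (adjusted p = 0.0229 by limma), and without shOpn3 replicate 2 it was 1.31 (adjusted p = 0.00347 by limma).

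The microglial markers had a median log2 fold change of 0.95. In shOpn3 replicate 1, where Hmox1 was highest, the summed microglial markers were 25652, the second lowest value of that group, and in shOpn3 replicate 4, where they were highest at 40401, Hmox1 was at 652. Replicate 2 was lowest in shOpn3 for both. Of 5 markers of perivascular macrophages and monocytes 1 rose, namely Mrc1, a call lost without shControl replicate 1, 3 or 5, without shOpn3 replicate 3 or 4 and with limma-voom (adjusted p from 0.0639 to 0.113). The sums of the 5 overlapped (5524 to 6694 in shControl, 5352 to 8112 in shOpn3). Vcan had the highest count of the 5 in every sample and so weighed most in these sums. Whether the reads of Vcan came from these cells was not tested, so the sums cannot be taken as the level of these cells. The log2 fold change of Vcan was -0.29 (adjusted p = 0.0612 by limma, with the replicate block 0.0397). Those of Mrc1, Cd163, F13a1 and Lyve1 were 0.54, 0.42, 0.26 and 0.04. Markers of red cells, the main source of heme in blood, overlapped as well, at 35988 to 103243 in shControl and 45840 to 85104 in shOpn3, and none of the 4 was called.

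The genes whose profile over the 10 samples lay nearest to that of Hmox1 were Fcgr2b, Rhbdf2 and Trem2. Likeness was measured as the root mean square distance of log2 values centred on each gene's mean, over 13823 genes with a symbol, and it was 0.27, 0.29 and 0.31. Fcgr2b encodes an inhibitory receptor for immunoglobulin G and Trem2, which is also on the list of microglial markers, a lipid receptor of microglia, while Rhbdf2 encodes a rhomboid-like protein that guides the protease that sheds tumour necrosis factor. Their own log2 fold changes were 1.24, 1.08 and 0.93, which the choice by likeness over the same 10 samples, group difference included, brings near that of Hmox1.

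**Figure D2:**
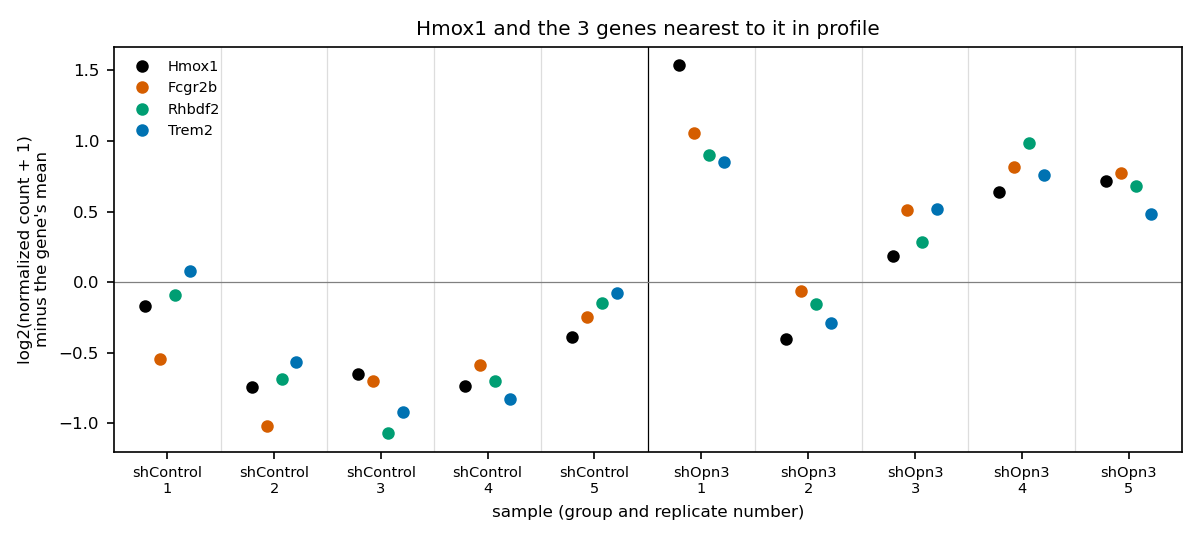
Log2(normalized count + 1) minus each gene's mean over the 10 samples (vertical axis) for Hmox1, Fcgr2b, Rhbdf2 and Trem2 in each sample (horizontal axis). All 4 genes are lowest among the shOpn3 samples in replicate 2, and Hmox1 stands above the other 3 in shOpn3 replicate 1.

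Cp (ENSRNOG00000011913), the ferroxidase ceruloplasmin, had the clearest separation. It had 4346, 5929, 5452, 6671 and 4990 normalized counts in shControl replicates 1 to 5 and 9975, 8830, 11176, 12675 and 9096 in shOpn3 replicates 1 to 5. The lowest shOpn3 sample lay above the highest control, so the groups did not overlap. The means were 5478 ± 887 and 10350.3 ± 1590 (SD, n = 5 each), and the log2 fold change was 0.92 (standard error 0.127; adjusted p = 0.000653 by limma; exact permutation test, two-sided, p = 0.00794, the smallest that 5 against 5 samples allow). The same-numbered samples stood at 230%, 149%, 205%, 190% and 182% of their controls, with replicate 2 again the smallest. The median log2 fold change of the 7 astrocyte markers was 0.21, with Gfap at 1.10, Aqp4 at 0.45 and Gja1 at 0.42 as those that rose, named with their values in view. The rest of that list was not called, with Slc1a2 at 0.21, Aldh1l1 at 0.07, Slc1a3 at -0.14 and Aldoc at -0.16. Slc1a3 and Aldoc were each lower in 5 of 5 pairs. The call of Aqp4 was lost without shOpn3 replicate 3 (adjusted p = 0.0512 by limma).

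Slc7a11 (ENSRNOG00000010210) encodes the light subunit of the exchanger xCT, which brings cystine into the cell for glutathione in return for glutamate. It had 7246, 8302, 8567, 8435 and 7142 normalized counts in shControl replicates 1 to 5 and 10375, 11294, 12636, 12308 and 9495 in shOpn3 replicates 1 to 5. Its groups did not overlap either, and the pairs were close to each other, at 143%, 136%, 147%, 146% and 133% of the control. The log2 fold change was 0.50 (standard error 0.0940; adjusted p = 0.00346 by limma; exact permutation test, two-sided, p = 0.00794). Its partner in the exchanger, Slc3a2, which other amino acid carriers also use, was named with its values in view and had a log2 fold change of 0.12 (standard error 0.0794; adjusted p = 0.350 by limma). With limma-voom and sample quality weights Slc3a2 was at 0.17 and called (adjusted p = 0.0468).

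**Figure D3:**
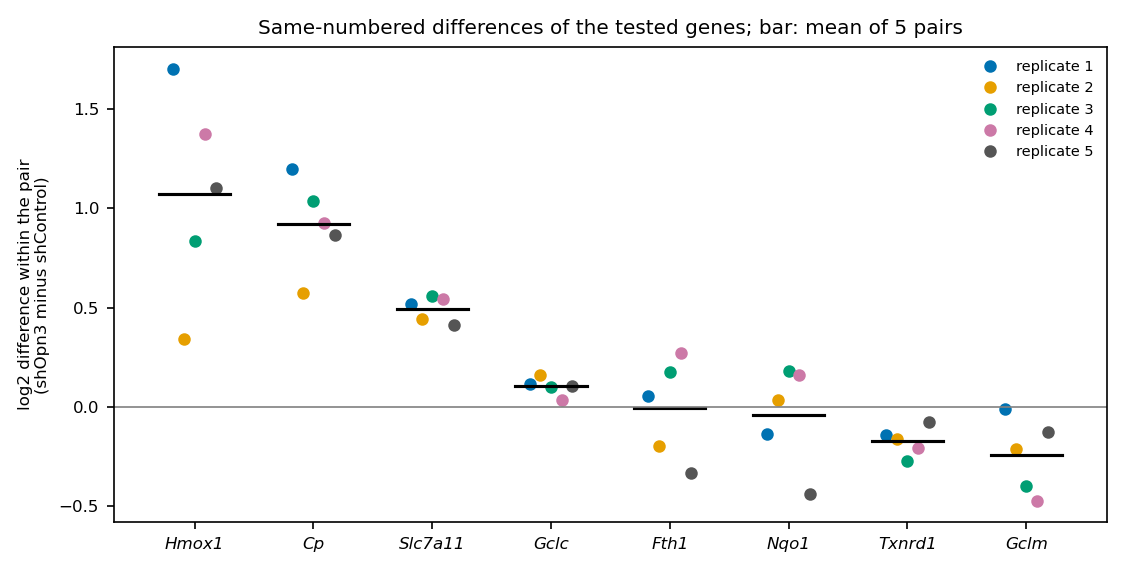
Log2 difference between same-numbered samples, shOpn3 minus shControl (vertical axis), for the 8 tested genes. Points are the 5 pairs and black bars their means. Hmox1 spreads from 0.34 to 1.70 and Slc7a11 only from 0.41 to 0.56, while Fth1 and Nqo1 lie on both sides of 0.

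The subunits of glutamate-cysteine ligase, the first and limiting enzyme of glutathione synthesis, differed in the direction of their values. The catalytic subunit Gclc (ENSRNOG00000006302) had 3338, 3303, 3520, 3638 and 3320 normalized counts in shControl replicates 1 to 5 and 3619, 3691, 3773, 3727 and 3574 in shOpn3 replicates 1 to 5. It was higher in 5 of 5 pairs, yet its log2 fold change of 0.10 was not called (standard error 0.0582; adjusted p = 0.248 by limma, with the replicate block 0.139; exact permutation test, two-sided, p = 0.0238, unadjusted). Scaled by total reads alone it was 0.17 and called (adjusted p = 0.0327 by limma). The modifier subunit Gclm (ENSRNOG00000013409), which makes the ligase less sensitive to inhibition by glutathione, had 1301, 1803, 1927, 1763 and 1337 normalized counts in shControl replicates 1 to 5 and 1289, 1558, 1464, 1270.2 and 1224 in shOpn3 replicates 1 to 5. It was lower in 5 of 5 pairs, least in replicate 1 (log2 difference -0.01) and most in replicate 4 (-0.47). Its log2 fold change of -0.24 (SE 0.123) was not called by group alone (adjusted p = 0.196 by limma) and was called with the replicate block (adjusted p = 0.0443 by limma). With limma-voom and sample quality weights, without a block, it was -0.41 and called (adjusted p = 0.00417).

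The log2 ratio of Gclm to Gclc, which does not depend on how a library is scaled beyond the added pseudocount, was lower in shOpn3 in 5 of 5 pairs. It was -1.36, -0.87, -0.87, -1.04 and -1.31 in shControl replicates 1 to 5 and -1.49, -1.24, -1.36, -1.55 and -1.55 in shOpn3 replicates 1 to 5. The means were -1.09 ± 0.234 and -1.44 ± 0.133 (SD, n = 5 each), so the difference of -0.35 exceeded the SD of either group, although the control replicates 1 and 5 lay among the shOpn3 samples. No test was made of this ratio.

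Among the reductases, Txnrd1 (ENSRNOG00000009088), which keeps cytosolic thioredoxin reduced, had 3782, 4077, 3970, 4054 and 3245 normalized counts in shControl replicates 1 to 5 and 3425, 3649, 3292, 3513 and 3079 in shOpn3 replicates 1 to 5. Replicate 5 was the lowest sample of both groups, and it made the groups overlap. Txnrd1 was lower in 5 of 5 pairs, with a log2 fold change of -0.17 (standard error 0.0797; adjusted p = 0.162 by limma, with the replicate block 0.0369; exact permutation test, two-sided, p = 0.0556). Without shControl replicate 5 the log2 fold change was -0.23 and was called without a block (adjusted p = 0.0402 by limma), and with limma-voom and sample quality weights over all 10 samples it was -0.28 and called (adjusted p = 0.00401).

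Nqo1 (ENSRNOG00000012772), a quinone reductase often read as a marker of NRF2 activity, had 1269, 1203, 1104, 1273 and 1672 normalized counts in shControl replicates 1 to 5 and 1154, 1233, 1253, 1424 and 1235 in shOpn3 replicates 1 to 5. It was higher in 3 pairs and lower in 2, and its log2 fold change was -0.039 (standard error 0.107; adjusted p = 0.841 by limma). The sign turned to 0.054 without shControl replicate 5, the highest sample, and to 0.032 when scaled by total reads alone.

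The row with the gene ID of Srxn1 (ENSRNOG00000031167), for the enzyme that repairs over-oxidized peroxiredoxins, rested on 29 to 69 reads. It had 64.2, 29.5, 33.7, 31.8 and 50.6 normalized counts in shControl replicates 1 to 5 and 61.4, 40.4, 41.1, 66.6 and 70.9 in shOpn3 replicates 1 to 5. Replicates 1 and 5 were the highest controls and replicates 4 and 5 the highest shOpn3 samples, and 4 of 5 pairs were higher in shOpn3. The log2 fold change of 0.44 (SE 0.257) was not called (adjusted p = 0.273 by limma). With limma-voom and sample quality weights it was 0.75 and called (adjusted p = 0.0162).

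The heavy chain of ferritin, Fth1 (ENSRNOG00000022619), which carries the ferroxidase site of the shell, had 75229, 68192, 72032, 70601 and 101325 normalized counts in shControl replicates 1 to 5 and 78299, 59408, 81518, 85283 and 80364 in shOpn3 replicates 1 to 5. Replicate 5 of shControl stood above all other samples and replicate 2 of shOpn3 below them. The log2 fold change was -0.0049 (standard error 0.134; adjusted p = 0.986 by limma), with 3 pairs higher and 2 lower. The same control sample had the highest sum of oligodendrocyte markers (1244840) and the same shOpn3 sample the lowest (248955). Between the groups, however, all 8 of these markers fell, with a median log2 fold change of -1.27, where Fth1 did not move. Within shOpn3, Fth1 was highest in replicate 4 and the sum of these markers in replicate 5 (470326). A relation between the 2 was not tested. Without shControl replicate 5 the difference of Fth1 was 0.096 (adjusted p = 0.618 by limma).

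The light chain could not be followed by its own name. Ftl1 (ENSRNOG00000031506) had 2, 3, 2, 7 and 7 reads in shControl replicates 1 to 5 and 5, 2, 7, 7 and 4 in shOpn3 replicates 1 to 5, too few for a test or for a ratio to Fth1. A row named LOC100360087 and described as ferritin light chain 1-like held 4254, 2046, 1720, 1987 and 3824 normalized counts in shControl and 4275, 1537, 1876, 2786 and 3033 in shOpn3. It was named with its values in view, and had a log2 fold change of -0.03 (standard error 0.308; adjusted p = 0.966 by limma). Further light chain rows, LOC100359668 and LOC100362384, had at most 7 reads in any sample. How reads that match several such copies were counted is not given in the sources used here, so none of these rows can be taken as the level of the light chain.

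Promoters were set beside these values because the genes named above as NRF2 targets share one motif and did not move as one. Cp was not among those targets, and its window was searched in the same way. RefSeq windows of assembly GRCr8, from 250 bases before to 50 after a start site, were found for 7 of the 10 genes, with 2 start sites for Txnrd1. They were missing for Hmox1, Fth1 and Ftl1. The core of the antioxidant response element was searched as TGACNNNGC on both strands, and the AP-1 site as TGACTCA on both strands. The first stood in 12.1% and the second in 4.63% of 33469 windows of that length. The core was found in the windows of Gclm and of 1 start site of Txnrd1, both lower in 5 of 5 pairs, and the AP-1 site at 2 places in that of Srxn1, which was not called. Neither motif matched in the windows of Cp and Slc7a11, which rose, nor in those of Gclc and Nqo1. A match or its absence in so short a window is a description of these letters alone. The 250 bases before the start site are printed for the genes that rose and for those with a match, in lower case on the gene's strand, with each match in capitals.
Cp (chr2:104368420-104368669, plus strand): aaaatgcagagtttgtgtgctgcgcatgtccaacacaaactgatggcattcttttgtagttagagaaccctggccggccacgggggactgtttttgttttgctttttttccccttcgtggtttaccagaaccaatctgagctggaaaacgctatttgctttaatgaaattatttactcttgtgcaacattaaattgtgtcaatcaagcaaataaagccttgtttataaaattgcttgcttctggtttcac
Slc7a11 (chr2:136668265-136668514, minus strand): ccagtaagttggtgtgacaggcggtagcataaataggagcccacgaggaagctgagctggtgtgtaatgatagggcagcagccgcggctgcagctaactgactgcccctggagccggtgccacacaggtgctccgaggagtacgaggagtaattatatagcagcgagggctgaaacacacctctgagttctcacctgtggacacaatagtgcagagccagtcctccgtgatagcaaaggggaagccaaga
Gclm (chr2:213031885-213032134, plus strand): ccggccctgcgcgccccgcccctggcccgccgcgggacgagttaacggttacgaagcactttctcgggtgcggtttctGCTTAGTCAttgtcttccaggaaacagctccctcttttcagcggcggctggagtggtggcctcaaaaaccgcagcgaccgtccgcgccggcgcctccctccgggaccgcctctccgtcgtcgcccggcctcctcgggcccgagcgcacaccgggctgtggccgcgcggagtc
Txnrd1 (chr7:22755905-22756154, minus strand): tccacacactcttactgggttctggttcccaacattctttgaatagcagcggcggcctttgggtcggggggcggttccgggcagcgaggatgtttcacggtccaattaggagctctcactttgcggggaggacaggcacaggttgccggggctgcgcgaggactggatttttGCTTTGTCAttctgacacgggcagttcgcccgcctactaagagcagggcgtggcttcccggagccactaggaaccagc
Srxn1 (chr3:161064562-161064811, plus strand): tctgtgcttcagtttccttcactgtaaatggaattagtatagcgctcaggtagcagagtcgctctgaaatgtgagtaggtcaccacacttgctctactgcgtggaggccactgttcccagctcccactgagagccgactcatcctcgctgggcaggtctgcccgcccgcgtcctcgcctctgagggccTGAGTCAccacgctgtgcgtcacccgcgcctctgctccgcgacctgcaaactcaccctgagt
The match in Gclm, GCTTAGTCA, begins 172 bases before the start site, and that in Txnrd1, GCTTTGTCA, begins 78 bases before it. Both are the core read on the opposite strand. The first AP-1 match of Srxn1 begins 62 bases before the start, and the second runs across the start site and is not printed whole.

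The regulators of this response were measured next. Nfe2l2, which encodes NRF2, had 2109, 2266, 2341, 2446 and 2476 normalized counts in shControl replicates 1 to 5 and 2421.5, 2766, 3859, 4026 and 3024 in shOpn3 replicates 1 to 5. It rose by 0.44 on the log2 scale (standard error 0.130; adjusted p = 0.0321 by limma), with only shOpn3 replicate 1 inside the range of the controls. Keap1, its inhibitor, had 1487, 1149, 1112, 1201 and 1478 normalized counts in shControl and 1093, 941, 853, 987 and 1127 in shOpn3, and fell by 0.36 (standard error 0.111; adjusted p = 0.0408 by limma). Both moved in one direction in 5 of 5 pairs and were called with the replicate block (limma, adjusted p = 0.00892 and 0.00262). Neither call was firm. That of Nfe2l2 was lost without shControl replicate 1, 2, 3 or 4 or shOpn3 replicate 3, 4 or 5 (limma adjusted p from 0.0521 to 0.0875). That of Keap1 was lost without shControl replicate 1, 4 or 5 or shOpn3 replicate 2, 3 or 4 (0.0594 to 0.111), with limma-voom (0.0525), without the filter on low values (0.0509) and when scaled by total reads alone (0.138). Bach1, a repressor that heme removes from the motif, had a log2 fold change of 0.10 (standard error 0.110; adjusted p = 0.571 by limma). Nfe2l1, which encodes a related factor, fell by 0.27 (standard error 0.0773; adjusted p = 0.0297 by limma). Its call was lost without shControl replicate 1, 2 or 4 or shOpn3 replicate 2, 3, 4 or 5 (0.0515 to 0.0877), with quantile normalization (0.101) and when scaled by total reads alone (0.126). Of the 9 genes of NRF2 regulation 1 rose and 2 fell, shares of 11.1% and 22.2% where 10.4% and 8.48% of all genes were called. The counts were 2 and 0 when scaled by total reads alone, where 13.7% and 5.35% of all genes were called. They were 2 and 1 without shControl replicate 5, where 10.1% and 8.49% of all genes were called.

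Across 6 lists of further genes of these pathways, 75 genes were tested, of which 4 were called higher and 17 lower. Over all genes 10.4% were called higher and 8.48% lower, so that the share of these genes called lower, 22.7%, was above that of all genes and the share called higher, 5.33%, below it. With the replicate block 6 were higher and 26 lower, where 15.1% and 15.2% of all genes were. Scaled by total reads alone, which moves the median of all genes up by 0.07 on the log2 scale, the counts were 6 higher and 10 lower, where 13.7% and 5.35% of all genes were. Without shControl replicate 5 they were 5 and 14, where 10.1% and 8.49% of all genes were. Without shOpn3 replicate 3 14 of these genes were called in place of 21, and 7.48% of all genes were then higher and 5.26% lower.

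Glutathione genes beyond the ligase moved downward where they were called. Of 14 tested, 3 (21.4%) fell and 0 rose, where 8.48% of all genes fell and 10.4% rose. With the replicate block 4 fell and 0 rose, where 15.2% and 15.1% of all genes did. Gpx3, the secreted glutathione peroxidase, fell from 8816 (SD 1378) to 3059 (SD 1418) normalized counts over 5 samples each, a log2 fold change of -1.61 (standard error 0.229; adjusted p = 0.000742 by limma). Gstp1, a glutathione transferase, fell by 0.67 (SE 0.0853) and Gss, which completes glutathione, by 0.59 (SE 0.0892) on the log2 scale, and shOpn3 lay below shControl in every sample for these 3 genes. Of 14 genes of thioredoxin and peroxide removal 2 (14.3%) fell, where 8.48% of all genes did. These were Sod1, by 0.32 (SE 0.0778), and Prdx4, by 0.25 (SE 0.0731). With the replicate block 5 of the 14 were called lower, where 15.2% of all genes were. Without shControl replicate 5 the count was 3, where 8.49% of all genes were called lower. Sod1 encodes the cytosolic superoxide dismutase and Prdx4 a peroxiredoxin of the secretory path. The call of Prdx4 was lost without shControl replicate 2, 3 or 4 or shOpn3 replicate 1, 3 or 5 (limma adjusted p from 0.0513 to 0.0808) and when scaled by total reads alone (0.0690). Among the genes that supply NADPH, which feeds both systems, Me1, the cytosolic malic enzyme, fell by 0.37 (SE 0.0905) on the log2 scale.

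**Figure D4:**
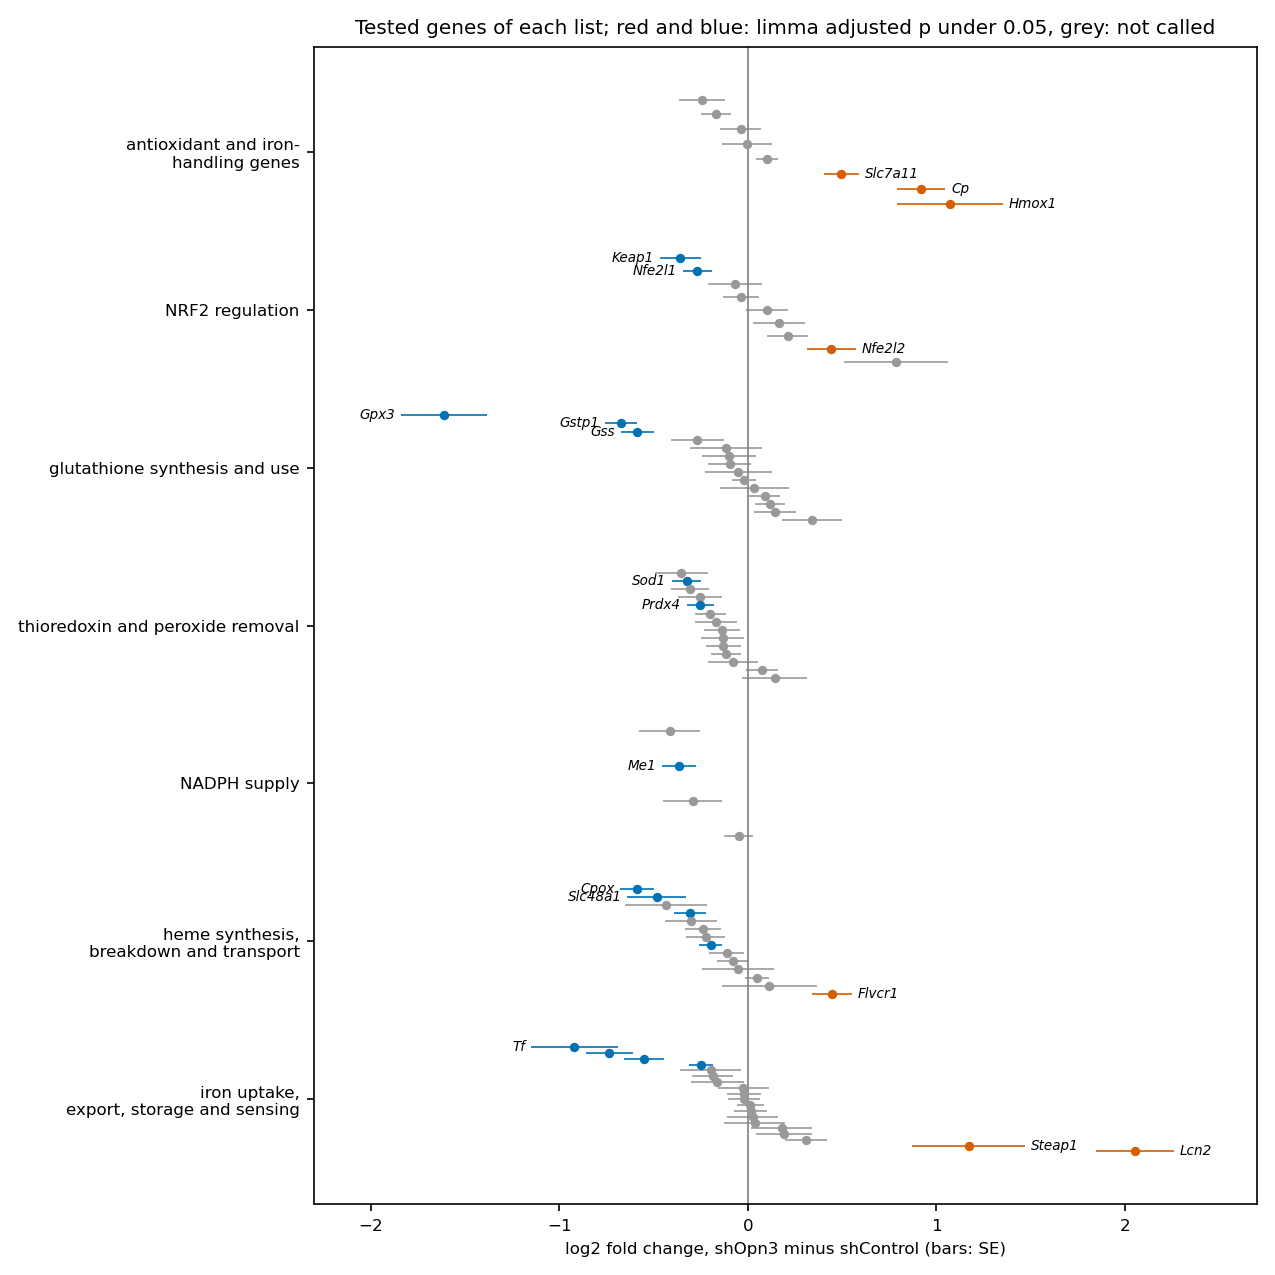
Log2 fold change, shOpn3 minus shControl (horizontal axis), with its SE for tested genes of the antioxidant and iron-handling genes and of the 6 pathway lists (vertical axis). Red and blue points were called higher and lower by limma, grey points were not called, and names are given for called genes chosen by a fixed rule, up to 3 further genes a list. Gpx3 at -1.61 and Lcn2 at 2.05 are the farthest points on either side.

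Of 14 genes that make, break down and move heme, 4 (28.6%) fell and 1 (7.14%) rose beside the rise of Hmox1. Over all genes 8.48% fell and 10.4% rose. With the replicate block 7 of the 14 fell and 1 rose, where 15.2% and 15.1% of all genes did. Cpox, a mitochondrial enzyme of heme synthesis, fell by 0.59 (standard error 0.0889; adjusted p = 0.000980 by limma). Slc48a1, a heme transporter of lysosomes, fell by 0.48 (standard error 0.155; adjusted p = 0.0473 by limma), and its call was lost in 12 of 21 alternatives, among them those without shControl replicate 1, 4 or 5 or any 1 shOpn3 sample. Flvcr1, a transporter linked to heme and choline, rose by 0.45 (standard error 0.106; adjusted p = 0.0118 by limma). Hmox2, the constitutive heme oxygenase, was named as the sister of Hmox1 with its values in view. It fell by 0.20 (standard error 0.0604; adjusted p = 0.0387 by limma), and its call was lost in 12 of 21 alternatives, among them those without any 1 sample other than shControl replicate 4. Without shControl replicate 5, and equally when scaled by total reads alone, 1 gene of this list fell and 1 rose. Of all genes 8.49% fell and 10.1% rose without that sample, and 5.35% and 13.7% when scaled by total reads alone.

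Of 19 tested genes of iron uptake, export, storage and sensing, 2 (10.5%) rose, a share near the 10.4% of all genes, and 4 (21.1%) fell, where 8.48% of all genes did. With the replicate block 3 (15.8%) rose and 4 (21.1%) fell, where 15.1% and 15.2% of all genes did. Scaled by total reads alone 3 rose and 3 fell, where 13.7% and 5.35% of all genes did. Lcn2, which binds iron-carrying siderophores and is made by reactive glia, rose from 37.7 (SD 4.95) to 164 (SD 45.1) normalized counts over 5 samples each, by 2.05 on the log2 scale (standard error 0.206; adjusted p = 0.000168 by limma). Steap1, of a family of metal reductases, rose by 1.17 (standard error 0.300; adjusted p = 0.0169 by limma). Tf, the iron carrier transferrin made in brain by oligodendrocytes, fell from 65941 (SD 19825) to 34995 (SD 9926) over 5 samples each, a log2 fold change of -0.92 (standard error 0.229; adjusted p = 0.0147 by limma), beside a median log2 fold change of -1.27 for the 8 oligodendrocyte markers. The transferrin receptor Tfrc and the iron sensors Aco1 and Ireb2 were not called, with log2 fold changes of -0.20, -0.02 and -0.02 (SE 0.163, 0.0894 and 0.136; limma, adjusted p = 0.444, 0.909 and 0.925). The iron exporter Slc40a1, for which Cp serves as oxidase, was listed with 0 reads in all 10 samples, which allows up to 3 reads in a sample and covers counting error only. The annotation and the way reads were assigned to this row are not given in the sources used here. The 0 therefore cannot be taken as absence of the exporter from this tissue.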

How the data were processed

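RNA of 5 shControl and 5 shOpn3 samples had been sequenced, and samples were grouped by their titles. FastQC, STAR, featureCounts and DESeq2 were used, per the submitters' processing notes; versions, genome build, annotation and strand setting are not given in the sources used here. The deposited signal was a read count divided by 1 size factor per sample. Whole reads came out for 100% of the values (tolerance 0.001). Per the file headers, the same table held the authors' log2 fold changes, Wald score and p-values. In the authors' deposited table Hmox1, Cp and Slc7a11 had log2 fold changes of 1.20, 0.92 and 0.50.

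Values were taken as log2(normalized count + 1), and 15597 genes with a mean of at least 10 were compared with limma 3.58.1 in R 4.3.3 (trend, no block; two-sided; Benjamini-Hochberg threshold 0.05); fold changes are on that scale. Single genes also had exact permutation tests over 252 splits. No label says that samples of a group came from separate rats. The pairing by number described below would make them so, but it was inferred. The p-values thus measure the spread between these samples, which may be technical in part. edgeR 4.0.16 and DESeq2 1.42.0 on the recovered reads, other scalings, pseudocounts, filters, and leaving out each sample were alternatives. On those reads edgeR called 3025 genes and DESeq2 3705, against 2940 by limma. No label says that equal numbers mark the same rat, but each rat was injected on both sides. Samples that share a number deviated together from their groups in all 5 pairs (r from 0.12 to 0.44, median 0.40). Samples with different numbers had r from -0.45 to 0.36 (median -0.21), so the ranges overlapped. Each group's mean was removed first, so r above 0 for same numbers pushes the r of different numbers below 0. The contrast of the medians is therefore not independent evidence. Likeness by number also cannot tell a shared rat from shared handling of the samples. With these limits the numbers were taken to pair the samples, while the main fit had no block. Names were those of the members, Opn3, Avp, Oxt, 7 genes of NRF2 and iron control, up to 3 called genes per pathway list by size, and the 3 nearest in profile to the member that rose most. No member fell in the fit without a block, so no nearest genes were sought for one. Pgd, Pcbp1, Ccr2, Pecam1 and Foxj1 were on a list but not found by name. Of the marker lists not described in the results, 1 of 5 neuronal genes rose and 1 fell, and 0 of 3 endothelial, 0 of 4 choroid plexus and ependymal and 0 of 3 pericyte genes were called. With the replicate block 1 endothelial gene was called higher, and Ttr of the choroid plexus list lower (adjusted p = 0.0186 by limma). Of all genes 15.1% were then higher and 15.2% lower. Ttr had 150 to 2396 normalized counts in shControl, highest in replicate 5, and 19.3 to 177 in shOpn3. Members and lists were chosen with earlier results of these data known. The values of 1 gene on the NADPH list are not reported here, though the counts over all 6 pathway lists include it.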

Additional observations from a re-analysis of the deposited data

Results flagged for a closer look

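In 5 of 76 group values examined, 1 sample stood apart from the other 4 of its group, where about 3.8 would arise by chance at 1 in 20. For Fth1 these were shControl replicate 5, with 101325 normalized counts against 75229 at most in its group, and shOpn3 replicate 2, with 59408 against 78299 or more. For Oxt it was shControl replicate 1, with 56716 against at most 21354. Nfe2l1 was at 8629 in that same library and at no more than 7678.5 in the other controls. Gpx3 was at 5522 in shOpn3 replicate 1, where the other shOpn3 samples reached 3018.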

How the results depend on the processing

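Over 21 alternatives, Hmox1, Cp and Slc7a11 kept direction and call in every one, with log2 fold changes of 0.82 to 1.31, 0.75 to 1.01 and 0.39 to 0.59 and adjusted p of at most 0.0483, 0.00293 and 0.0124. Fitting the replicate block gave 4726 genes, 2376 of them lower, where the fit without it gave 2940 and 1322. Of the 8 genes 5 were then called in place of 3, and of the pathway genes 32 in place of 21. edgeR with the replicate block gave 4777 genes (2490 lower), 5 and 33. Limma-voom with sample quality weights called 5085 genes (2441 higher, 2644 lower) and 5 of the 8. Scaled by total reads alone, 2139 genes were higher and 835 lower, against 1618 and 1322. Leaving out 1 sample gave 820 to 1405 genes lower, with the lowest count without shOpn3 replicate 3. The sign of uncalled genes near 0 turned in some fits. Nqo1 was 0.017 with limma-voom, 0.032 scaled by total reads alone and -0.095 to 0.054 without 1 sample. Fth1 was 0.11 with limma-voom, 0.066 scaled by total reads alone and -0.047 to 0.096 without 1 sample. Aco1 was 0.010 with quantile normalization, 0.051 scaled by total reads alone and -0.074 to 0.025 without 1 sample. Ireb2 was 0.023 with quantile normalization, 0.046 scaled by total reads alone and -0.12 to 0.067 without 1 sample. The cause of these shifts was not tested. At 2 to 7 reads, no change of Ftl1 could be tested.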

Other observations

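Hamp, which encodes hepcidin, the peptide that lowers iron export, was too low to be tested. It had 0, 1, 0, 0 and 1 reads in shControl replicates 1 to 5 and 1, 2, 13, 13 and 4 in shOpn3 replicates 1 to 5, so that only shOpn3 replicates 3, 4 and 5 lay above 3 reads. It was named with its values in view. Hpx, which binds free heme, had 1 to 10 reads in shControl and 6 to 16 in shOpn3 and was not tested either.

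LOC100360087, the row described as ferritin light chain 1-like, was high in the same replicate numbers of both groups. Replicates 1 and 5 had 4254 and 3824 normalized counts in shControl and 4275 and 3033 in shOpn3, while the other samples had 1537 to 2786. The row with the gene ID of Srxn1 had its 2 highest shControl samples in the same numbers.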
